A study of Mus musculus with 35 samples.

Results

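The collagen chain genes of mouse lung are described here across 35 whole-lung RNA libraries. A gene was taken when its symbol was Col, a number, the letter a and a number, and when its mean over all libraries was at least 0.5 CPM, a unit in which a gene's count is scaled to a fixed total per library. Of the 57186 genes in the deposited count table, 44 had such a symbol and 40 of these reached the minimum. The genes were thus selected on their mean level, which is given only as a description. The rule uses no difference between groups, but it was set with earlier results of these data known. Just inside the minimum was Col28a1 with a mean of 0.540 CPM, and just outside it was Col9a2 with 0.369 CPM. The others left out were Col11a1 with 0.334 CPM, Col9a1 with 0.165 CPM and Col19a1 with 0.0378 CPM.

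The libraries fall into 12 groups by agent, genotype and day label. Mice given naphthalene and mice left untreated were each sampled as KO and C animals at day labels 2, 5 and 7, with 3 libraries per group except the naphthalene KO group of day 7, which has 2. Naphthalene is a toxicant that injures the club cells of the airway lining, because these cells convert it to reactive products. The KO genotype is RORaf/fIl7riCre and the C genotype is RORaf/f, so both carry Rora alleles flanked by loxP sites. In KO mice Cre recombinase is made from the Il7r locus, and it acts in cells that express Il7r, a receptor chain of lymphoid cells, and in their descendants. The C label names no Cre, so the deletion and the presence of Cre cannot be told apart. The design text gives an age of 14 days without tying an age to the day labels, so how old the untreated mice of each day were is not known. The naphthalene dose is not stated either. RNA came from a homogenate of the whole lung, in which fewer cells of a type and less RNA per cell cannot be told apart. Each library was taken as a separate mouse, which the labels do not state, and p-values measure only the spread between these libraries.

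Collagen molecules are long helices wound from alpha chains, each chain the product of its own gene. Fibrillar collagens, with types I and III the main ones of lung interstitium, form the cables that carry tension, and fibroblasts are their chief source. Type IV collagen is the sheet-like network of basement membranes under the epithelium and around capillaries, and types XV and XVIII sit beside it. Type VI forms beaded microfibrils, the fibril-associated (FACIT) types decorate fibril surfaces, transmembrane types span the cell membrane, and type VIII forms short-chain networks in vessel walls. By these classes the 40 genes comprised 10 fibrillar, 9 basement membrane, 7 microfibrillar, 6 FACIT and 4 transmembrane genes, with 4 network-forming and other genes.

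The promoters of 4 genes on which the results turn are shown first, because Col4a1 and Col4a2 start back to back from a shared stretch of chromosome 8 and because Col24a1 and Col8a1 had the largest differences at day 2. Each window runs from 250 bases before to 50 bases after the start site in RefSeq, build GRCm38.p6, and is written 5′ to 3′ on the gene's own strand. The windows are chr8:11312777-11313076 on the minus strand for Col4a1, chr8:11312555-11312854 on the plus strand for Col4a2, chr3:145292222-145292521 on the plus strand for Col24a1 and chr16:57754688-57754987 on the minus strand for Col8a1. Capitals mark the CCAAT box or its reverse complement ATTGG.
Col4a1: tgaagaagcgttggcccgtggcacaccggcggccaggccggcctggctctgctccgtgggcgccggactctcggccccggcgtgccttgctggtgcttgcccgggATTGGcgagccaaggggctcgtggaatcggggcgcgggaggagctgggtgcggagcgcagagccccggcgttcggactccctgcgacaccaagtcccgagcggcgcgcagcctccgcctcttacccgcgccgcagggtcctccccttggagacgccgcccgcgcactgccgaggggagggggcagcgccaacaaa
Col4a2: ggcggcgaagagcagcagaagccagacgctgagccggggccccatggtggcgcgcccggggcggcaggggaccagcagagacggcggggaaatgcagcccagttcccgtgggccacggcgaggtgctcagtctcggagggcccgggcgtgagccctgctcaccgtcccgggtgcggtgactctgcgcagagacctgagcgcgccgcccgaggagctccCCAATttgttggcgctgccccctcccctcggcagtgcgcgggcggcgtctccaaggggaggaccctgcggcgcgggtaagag
Col24a1: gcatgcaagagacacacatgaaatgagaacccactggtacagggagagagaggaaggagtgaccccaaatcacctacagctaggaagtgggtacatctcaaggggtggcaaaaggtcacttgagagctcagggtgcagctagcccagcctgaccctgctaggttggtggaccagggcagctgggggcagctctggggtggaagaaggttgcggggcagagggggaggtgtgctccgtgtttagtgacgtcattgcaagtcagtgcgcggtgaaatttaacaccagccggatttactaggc
Col8a1: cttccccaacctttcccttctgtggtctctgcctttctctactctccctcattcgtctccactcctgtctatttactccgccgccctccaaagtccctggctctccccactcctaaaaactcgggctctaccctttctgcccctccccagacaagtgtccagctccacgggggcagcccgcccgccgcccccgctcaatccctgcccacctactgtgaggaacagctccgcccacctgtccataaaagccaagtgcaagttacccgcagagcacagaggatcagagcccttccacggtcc
The Col4a1 and Col4a2 windows share 78 bases, read on opposite strands, and their start sites lie 21 bases apart. The Col4a1 window holds ATTGG at position -145 and the Col4a2 window holds CCAAT at position -32 from their own start sites. Windows of 31 of the 40 symbols were at hand, 33 in all. CCAAT on either strand was in 11 of these 33 windows (33.3%), against 37.4% of 32851 windows of all genes. TATAAA on either strand was in 15.2% of the collagen windows, against 13.6% of all windows. GGGCGG on either strand was in 21 collagen windows (63.6%), against 35.7% of all windows. The Col24a1 window held none of these motifs, and the Col8a1 window held GGGCGG 4 times without CCAAT or TATAAA. A match is a stretch of letters and not a measured binding site.

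Library totals ranged from 10696690 to 21062713 counts with a median of 16159028, so that 1 read was worth between 0.0475 and 0.0935 CPM. Marker genes fitted the labelled tissue: the summed level of 4 alveolar type 2 markers (Sftpc, Sftpb, Lamp3, Abca3) was 6597 to 27479 CPM in the 35 libraries. The library names carry a letter whose meaning is not stated. At day 2 all naphthalene libraries have the letter a, while the untreated libraries have k (4) or n (2). At day 5 the naphthalene libraries have b (5) or i (1) and the untreated libraries have f (4) or o (2). All 11 libraries of day 7 have the letter p. Naphthalene and letter therefore cannot be told apart at days 2 and 5, nor day and letter in the untreated lungs. For the collagen genes and their partners, results against each letter are therefore given beside the pooled ones, by counts and by the genes named.

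The collagen genes together held 0.721% to 1.93% of a library's counts, with a median of 1.29%. On the scale of CPM per kilobase of exon, which allows genes to be compared, the basement membrane chains Col4a1 and Col4a2 led with means of 365 and 320 CPM per kilobase. The fibrillar chains Col1a1 (233), Col3a1 (193) and Col1a2 (93.1 CPM per kilobase) and the microfibrillar chains Col6a1 (178) and Col6a2 (81.8 CPM per kilobase) followed. Col4a5, Col5a1 and the transmembrane Col13a1 were next with 34.2, 34.01 and 33.6 CPM per kilobase. At the low end were Col22a1, a FACIT chain of muscle-tendon junctions, with 0.0909 CPM per kilobase, Col6a6 with 0.0989, Col28a1 with 0.109 and Col2a1, the main cartilage fibril chain, with 0.123 CPM per kilobase. Lengths are the summed exons of a GENCODE annotation of GRCm38, matched by Ensembl identifier.

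Chains that assemble together can be compared as ratios within a library. For types I and VI and for the main pair of type IV, the ratio spanned a narrower range than either chain. The ratio of Col4a1 to Col4a2 in CPM ran from 0.963 to 1.596 over the 35 libraries, a 1.66-fold range, while Col4a1 itself spanned 4.098-fold and Col4a2 4.77-fold. Col6a1 over Col6a2, the first chains of type VI collagen, ran from 0.935 to 1.41, and Col1a1 over Col1a2, the chains of type I collagen, from 0.829 to 1.91. Wider ranges were seen for Col4a3 over Col4a4, chains of the mature alveolar and glomerular basement membrane, at 0.299 to 0.976, and for Col5a1 over Col5a2 at 0.876 to 2.75. Col8a2 over Col8a1 ran from 0.828 to 8.78, with its highest value in an untreated day 2 library of letter k. For type I the margin was small, at 2.30-fold for the ratio and 2.42-fold for Col1a2. A narrower ratio was not particular to chains that assemble together. Col4a1 over Col4a3 spanned 2.96-fold, against 4.098-fold and 6.53-fold for its chains. Col3a1 over Col1a1 spanned 3.006-fold, against 3.96-fold and 3.009-fold. These ratios describe libraries that share groups and letters, so no test is attached to them.

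**Figure D1:**
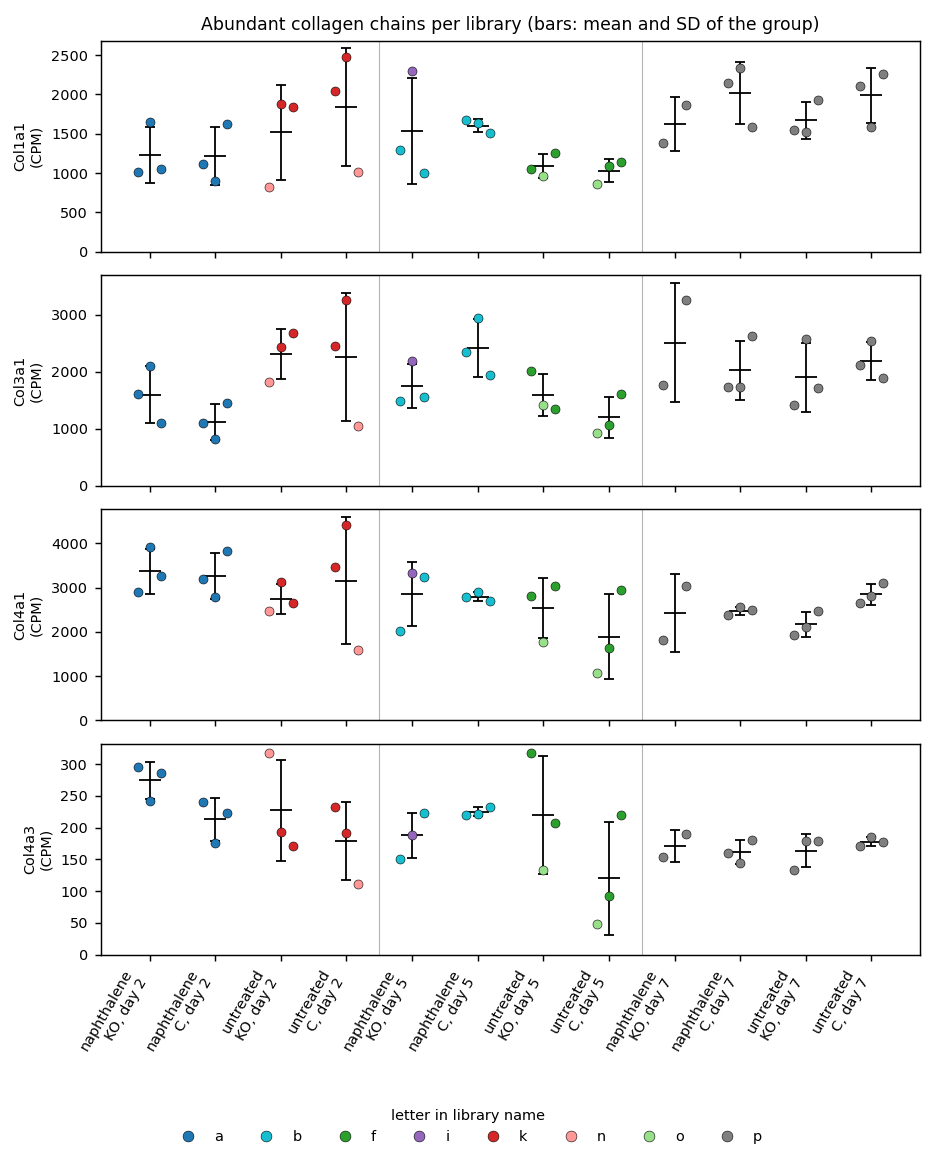
Level in CPM (vertical axes, from 0) of Col1a1, Col3a1, Col4a1 and Col4a3 in each library of the 12 groups, naphthalene left of untreated and KO left of C within each day. Points are libraries coloured by the letter in the library name and bars are the group mean and SD; among untreated lungs of day 2 the 2 letter n libraries lie below the letter k libraries for Col1a1 and Col3a1.

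The first comparison asked how lungs differed 2 days after naphthalene from untreated lungs of the same day label. The fibrillar chains Col24a1, Col3a1 and Col5a3, the microfibrillar chains Col6a3 and Col6a4, the FACIT chain Col22a1 and the transmembrane chain Col23a1 were lower, and the short-chain gene Col8a1 was higher. With the mean of both genotypes and an edgeR quasi-likelihood test adjusted by Benjamini-Hochberg over 20606 genes at a threshold of 0.05, 1 of the 40 collagen genes rose and 7 fell. Of all genes tested 5.6% rose and 4.3% fell (9.9% in either direction). Below 0 lay 27 of the 40 log2 differences, whose median was -0.18, against -0.04 over all genes tested. Without the libraries of letters k and f, a setting chosen after seeing the data, the median turned to 0.13, against 0.016 over all genes. In that setting 2 collagen genes were higher and 1 was lower, with 1694 calls over all genes (main 2040). By class, 3 of 10 fibrillar, 2 of 7 microfibrillar, 1 of 6 FACIT and 1 of 4 transmembrane genes fell, no basement membrane gene was called, and 1 of the 4 network-forming and other genes rose. The class medians were -0.44 for fibrillar, -0.24 for microfibrillar, -0.22 for FACIT and -0.03 for basement membrane genes.

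Col24a1, a fibrillar chain known from developing bone and cornea, differed most. It stood at 0.862, 0.902 and 0.234 CPM in naphthalene KO lungs and 0.744, 0.824 and 0.825 CPM in naphthalene C lungs, against 2.39, 5.56 and 4.74 CPM in untreated KO lungs and 3.70, 3.66 and 2.28 CPM in untreated C lungs. Every naphthalene library lay below every untreated library, which held for 1.47% of all genes tested in the same direction, and Col24a1 was the only collagen gene for which it did. The log2 difference was -2.34 ± 0.27 (SE), with an edgeR adjusted p of 2.65e-07. The gene is sparse, with 4 counts in its lowest library and 101 in its highest. It was called in each genotype taken alone, at -2.68 in KO lungs (edgeR adjusted p 5.8e-05) and -2.002 in C lungs (edgeR adjusted p 0.000994), where 0.747% and 1.18% of all genes tested fell.

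Col8a1, a chain of the short network collagen of vessel walls and corneal membranes, was the collagen gene that rose. It measured 9.35, 6.14 and 10.5 CPM in naphthalene KO lungs and 9.73, 11.2 and 6.98 CPM in naphthalene C lungs, against 7.00, 1.71 and 1.75 CPM in untreated KO lungs and 2.24, 2.09 and 4.20 CPM in untreated C lungs. The 4 untreated libraries at or under 2.24 CPM were those of letter k and the 2 higher ones were those of letter n, so the groups overlapped through 1 letter n library. The log2 difference was 1.53 ± 0.29, with an edgeR adjusted p of 0.000448. Its partner chain Col8a2 had a difference of 0.42 ± 0.21 and was not called.

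Among the microfibrillar genes Col6a4, a type VI chain with a broken counterpart in humans, had a lowest, median and highest level of 1.28, 1.86 and 3.85 CPM after naphthalene, against 3.55, 4.57 and 6.496 CPM in untreated lungs. The groups overlapped through the naphthalene KO library with 3.85 CPM, and the log2 difference was -1.12 ± 0.23 (edgeR adjusted p 0.000893). Col6a3, the large chain of type VI microfibrils, had 226, 261 and 489 CPM, against 360, 452 and 585 CPM in untreated lungs. The same naphthalene KO library, with replicate number 2, stood among the untreated ones, and the difference was -0.62 ± 0.15 (edgeR adjusted p 0.00687). Col6a1 and Col6a2, the more abundant type VI chains, had differences of -0.11 ± 0.14 and -0.36 ± 0.19 and were not called.

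Col23a1, a transmembrane collagen, had 61.3, 73.1 and 93.1 CPM as lowest, median and highest after naphthalene, against 90.9, 100.4 and 114 CPM in untreated lungs. The groups met only at 1 naphthalene library, again the KO library with replicate number 2, and the difference was -0.45 ± 0.11 (edgeR adjusted p 0.00515). Col22a1 had 0.254, 0.388 and 0.862 CPM, against 0.415, 1.10 and 1.31 CPM in untreated lungs, and a difference of -1.02 ± 0.30 (edgeR adjusted p 0.0286). Its 2 low untreated libraries, at 0.415 and 0.531 CPM, were those of letter n.

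Of the fibrillar genes, Col3a1, the main partner of type I collagen in distensible tissue, had 824, 1278 and 2104 CPM after naphthalene, against 1059, 2441 and 3264 CPM in untreated lungs. Its difference was -0.77 ± 0.23 (edgeR adjusted p 0.0289). Col5a3, a minor type V chain, had 5.21, 6.68 and 8.90 CPM, against 6.20, 11.0 and 15.2 CPM in untreated lungs, and a difference of -0.62 ± 0.19 (edgeR adjusted p 0.0288). For both genes the lowest untreated library was one of letter n and stood inside the naphthalene range. Col1a1, the major chain of type I collagen, had 902, 1083 and 1646 CPM, against 822, 1865 and 2472 CPM in untreated lungs. Its difference of -0.45 ± 0.22 was not called (edgeR adjusted p 0.211), nor were those of Col1a2 at -0.39 ± 0.17, Col5a1 at -0.42 ± 0.18 and Col2a1 at -0.86 ± 0.38.

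The basement membrane chains were not called at day 2. Col4a1 had 2787, 3225 and 3929 CPM after naphthalene, against 1600, 2890 and 4410 CPM in untreated lungs, and the untreated range enclosed the naphthalene range. Its difference was 0.17 ± 0.21 and that of Col4a2 was 0.31 ± 0.23. Col4a3 and Col4a4 had differences of 0.26 ± 0.24 and 0.05 ± 0.13, Col15a1 of -0.23 ± 0.24 and Col18a1 of -0.03 ± 0.25. Col12a1, a FACIT chain of tissues under load, stood at -0.01 ± 0.23, Col14a1, a FACIT chain that regulates fibril growth, at -0.59 ± 0.21, and the hemidesmosome collagen Col17a1 at 0.25 ± 0.21, none of them called.

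**Figure D2:**
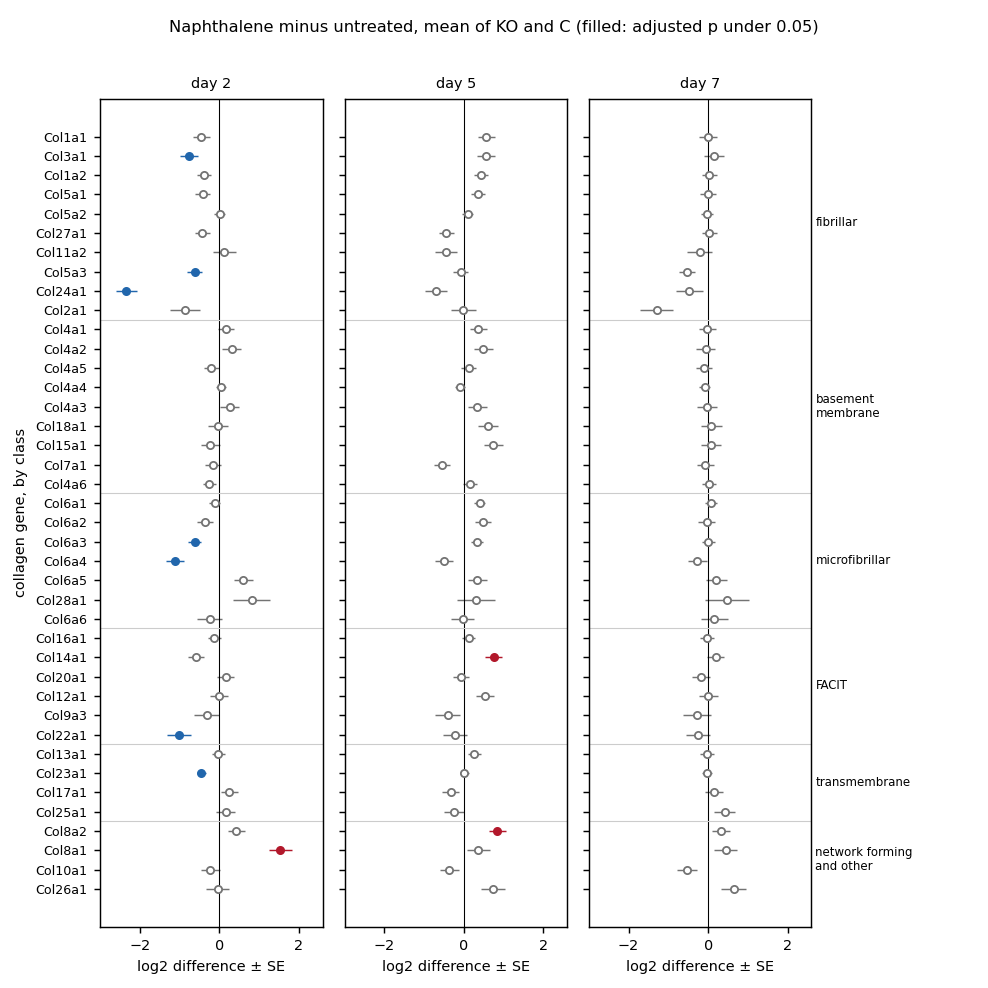
Log2 difference ± SE (horizontal axes) of naphthalene over untreated lungs at days 2, 5 and 7 for the 40 collagen genes, ordered by class down the page; filled points have an edgeR adjusted p under 0.05. The filled points number 8 at day 2, 2 at day 5 and 0 at day 7, with Col24a1 farthest to the left at day 2.

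**Figure D3:**
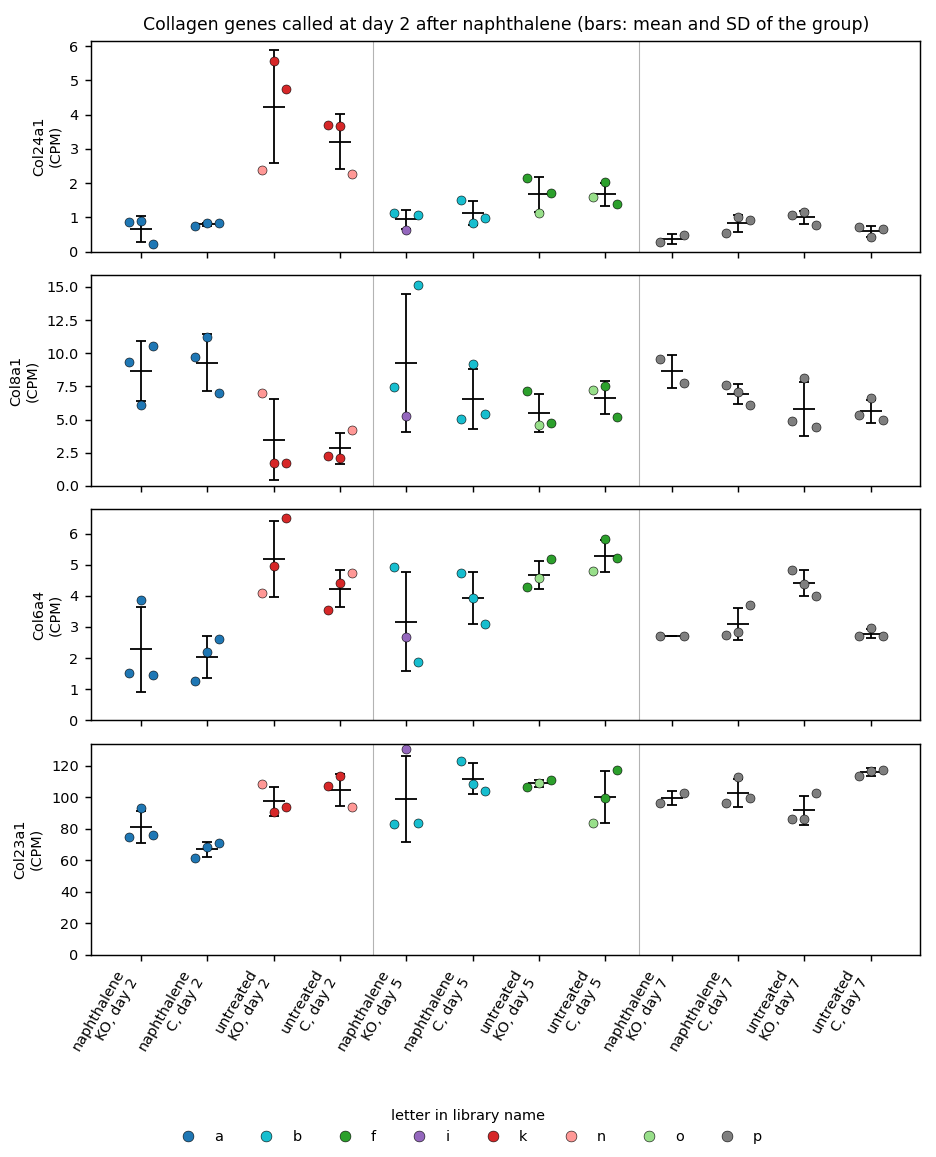
Level in CPM (vertical axes, from 0) of Col24a1, Col8a1, Col6a4 and Col23a1 in each library, naphthalene left of untreated and KO left of C within each day; points are libraries coloured by letter and bars are the group mean and SD. For Col24a1 all 6 naphthalene libraries of day 2 lie at or under 0.902 CPM, below the untreated libraries of that day, which start at 2.28 CPM.

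The untreated libraries of day 2 also differed between their letters. A separate edgeR fit with a mean for each group and letter, over 21681 genes, compared the 4 letter k libraries with the 2 letter n libraries, and 11 collagen genes were higher in k and 1 was lower, against 3.08% and 4.59% of all genes tested. Col1a1 had 2048, 2472, 1883 and 1846 CPM in the letter k libraries and 1012 and 822 CPM in the letter n libraries. The log2 difference of k over n was 1.20 ± 0.24 (edgeR adjusted p 0.0099). Col3a1 had a difference of 0.99, Col1a2 of 0.76, Col5a1 of 1.00, Col14a1 of 0.96, Col4a1 of 0.79 and Col4a2 of 0.98, all called. Col8a1 was the gene lower in k, at -1.45 ± 0.32 (edgeR adjusted p 0.0141).

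Markers of some other cells moved with these letters and others did not. The summed level of the 10 fibrillar genes was 6391 to 8299 CPM in the letter k libraries and 3455 and 4199 CPM in the letter n libraries. Ptprc, the pan-leukocyte gene, was 46.2 to 59.8 CPM in letter k and 97.1 and 127.5 CPM in letter n. The 4 alveolar type 2 markers summed to 13974 to 19582 CPM in letter k and 7236 and 10940 CPM in letter n. H19, an imprinted RNA of fetal and early postnatal tissue, was 25.8 to 46.0 CPM in letter k and 9.70 and 15.5 CPM in letter n. Fibroblast markers overlapped, with sums of 2215 to 2676 CPM in letter k and 2338 and 2741 CPM in letter n. Myofibroblast and smooth muscle markers also overlapped, at 496 to 588 CPM in letter k and 543 and 546 CPM in letter n. The part of these measures in the collagen differences was not tested.

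Taken against each letter alone, the day 2 results divided. Against letter k 1 collagen gene was higher and 12 were lower after naphthalene (6.96% and 5.88% of all genes tested), and against letter n 3 were higher and 3 were lower (5.05% and 3.87%). Col24a1, Col6a4 and Col23a1 fell against both letters. For Col24a1 the differences were -2.57 ± 0.25 against k (edgeR adjusted p 4.32e-08) and -1.65 ± 0.32 against n (edgeR adjusted p 0.0017). For Col6a4 they were -1.15 and -0.9998, and for Col23a1 -0.45 and -0.42, with edgeR adjusted p-values between 0.00217 and 0.0457.

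Other genes kept the call against k alone. Col8a1 differed by 2.21 against k (edgeR adjusted p 5.08e-07) and by 0.76 against n (edgeR adjusted p 0.1). Col6a3 differed by -0.69 and -0.43, Col3a1 by -1.01 and -0.02, Col5a3 by -0.81 and -0.10 and Col22a1 by -1.32 and -0.00, of which those against n were not called. Col1a1 changed side, at -0.74 against k (edgeR adjusted p 0.00304) and 0.46 against n (edgeR adjusted p 0.19). Col4a2 differed by 0.07 against k and was called at 1.05 against n (edgeR adjusted p 0.00707), and Col4a1 by -0.02 against k and, called, by 0.77 against n (edgeR adjusted p 0.0302).

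**Figure D4:**
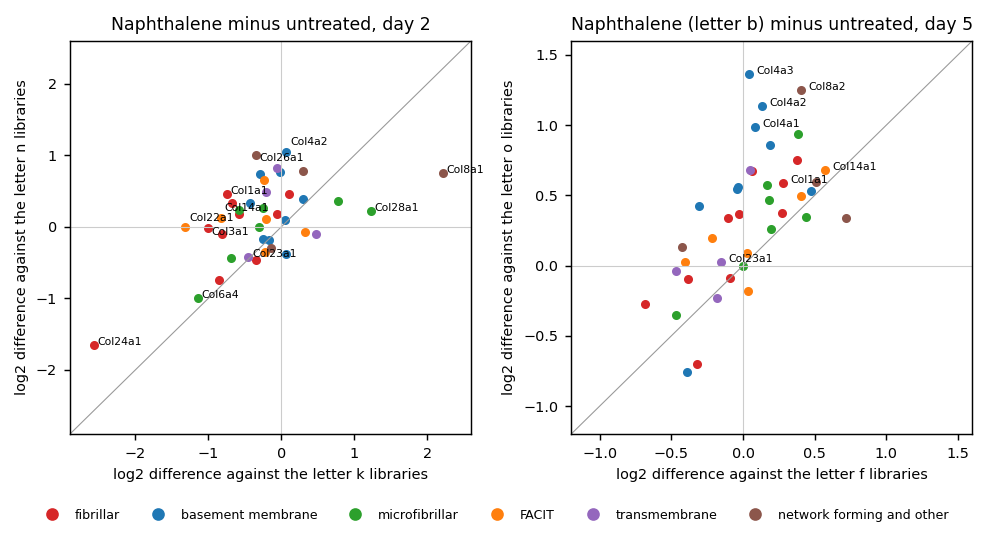
Log2 difference of naphthalene over untreated lungs for each of the 40 collagen genes against 1 letter of untreated libraries (horizontal) and against the other (vertical), at day 2 on the left (letters k and n) and at day 5 on the right (letters f and o); colours are classes and the diagonal marks equal differences. At day 2 Col24a1, Col6a4 and Col23a1 are below 0 on both axes, with Col6a4 and Col23a1 near the diagonal, while Col24a1, Col1a1 and Col3a1 lie above it.

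The same question was asked 5 days after naphthalene. The 40 genes leaned to the higher side, with 25 above 0 and a median log2 difference of 0.21, against -0.02 over all genes tested. This median depended on the libraries used: it was 0.029 without letters n, o and i (0.007 over all genes) and 0.46 without letters k and f. By the edgeR test 2 rose and 0 fell, where 4.34% of all genes tested rose and 2.82% fell (7.16% in either direction), and 17 of the 40 had an unadjusted p under 0.05. The count was 0 when the naphthalene KO library with replicate number 2, or either untreated letter o library, was left out. It was 11 without the untreated C library with replicate number 3. Calls over all genes also moved, and were as far apart as 556 and 4073 with single libraries left out. The moves in the count were therefore not shown to be particular to collagen genes. The class medians were 0.34 for basement membrane, 0.33 for microfibrillar and 0.04 for fibrillar genes.

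Col8a2 rose. It had 9.86, 32.5 and 20.9 CPM in naphthalene KO lungs and 16.8, 17.1 and 17.6 CPM in naphthalene C lungs, against 13.5, 7.99 and 12.3 CPM in untreated KO lungs and 5.96, 8.92 and 14.99 CPM in untreated C lungs. All naphthalene libraries but 1 lay above all untreated ones, and the log2 difference was 0.84 ± 0.22 (edgeR adjusted p 0.0167). Col14a1 rose as well. It had 31.8, 63.9 and 41.8 CPM in naphthalene KO lungs and 57.9, 56.3 and 44.1 CPM in naphthalene C lungs, against 33.9, 28.6 and 33.03 CPM in untreated KO lungs and 26.7, 21.01 and 32.6 CPM in untreated C lungs. Here too 1 naphthalene KO library stood among the untreated ones, and the difference was 0.75 ± 0.21 (edgeR adjusted p 0.0254).

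The main structural chains did not pass the test at day 5. Col1a1 had 1005, 1571 and 2295 CPM as lowest, median and highest after naphthalene, against 865, 1067 and 1255 CPM in untreated lungs, and a difference of 0.57 ± 0.22 (edgeR adjusted p 0.0977). Col3a1 had 1484, 2064 and 2949 CPM, against 930, 1384 and 2013 CPM in untreated lungs, and also a difference of 0.57. Col4a1 and Col4a2 had differences of 0.37 ± 0.21 and 0.50 ± 0.23. Closest to the threshold were Col15a1 at 0.74 ± 0.24 (edgeR adjusted p 0.0557) and Col6a1 at 0.40 ± 0.14 (edgeR adjusted p 0.0717). Col24a1, at 0.633 to 1.52 CPM after naphthalene and 1.14 to 2.15 CPM without, had a difference of -0.70 ± 0.27 that was not called (edgeR adjusted p 0.0984).

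The day 5 calls depended on the letters as well. Between the untreated letters, 4 collagen genes were higher in f than in o and 0 were lower (1.36% and 1.21% of all genes tested), and all 4 were type IV chains. Col4a3 had 91.6, 220, 318 and 207 CPM in the letter f libraries and 48.7 and 133 CPM in the letter o libraries, with 1 letter f library below the higher letter o library. Its log2 difference of f over o was 1.32 (edgeR adjusted p 0.00336), and those of Col4a2, Col4a1 and Col4a4 were 1.00, 0.90 and 0.73. With the 5 naphthalene libraries of letter b, 0 collagen genes were called against f (1.73% of all genes tested in either direction), where 7 had an unadjusted p under 0.05. Against o 8 were higher and 1 was lower (6.92% and 4.8%), led by Col4a3 at 1.36, Col8a2 at 1.25, Col4a2 at 1.14 and Col4a1 at 0.99. Col14a1 kept a similar size against both, at 0.57 against f (edgeR adjusted p 0.153) and 0.68 against o (edgeR adjusted p 0.0745), without passing against either. Col8a2 differed by 0.41 against f (edgeR adjusted p 0.34). Ptprc had a log2 difference of -0.80 after naphthalene at day 5 (edgeR adjusted p 0.0341), and 3 of 4 mesothelial markers rose, where 4.34% of all genes tested rose and 2.82% fell. The summed mesothelial level was 57.3 to 213 CPM after naphthalene and 41.1 to 81.5 CPM in untreated lungs. Its medians were 112 CPM in letter b, 78.3 CPM in f and 50.6 CPM in o. Those of Ptprc were 57.0, 86.5 and 125 CPM. Their part in the collagen values was not tested.

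Day 7 is the day on which naphthalene and untreated libraries share a letter. No collagen gene was called by edgeR, nor by DESeq2, where 0.335% of all genes tested rose and 0.0388% fell by edgeR (0.374% in either direction), and 4 of the 40 had an unadjusted p under 0.05. The median log2 difference was -0.01, the same as over all genes tested. Col1a1 had 1379, 1871, 2151, 2338 and 1580 CPM after naphthalene, against a lowest, median and highest of 1528, 1763 and 2264 CPM in untreated lungs, and a difference of -0.01 ± 0.23. The largest difference was that of Col2a1, at 0.139 and 0.476 CPM in naphthalene KO lungs and 3.77, 0.944 and 1.19 CPM in naphthalene C lungs, against 1.30, 0.878 and 1.88 CPM in untreated KO lungs and 1.63, 1.38 and 4.90 CPM in untreated C lungs. The sets overlapped widely and the difference of -1.29 ± 0.42 was not called (edgeR adjusted p 0.302).

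Col24a1 at day 7 had 0.278 and 0.476 CPM in naphthalene KO lungs and 0.539, 1.01 and 0.938 CPM in naphthalene C lungs, against 1.08, 1.15 and 0.787 CPM in untreated KO lungs and 0.711, 0.414 and 0.661 CPM in untreated C lungs. Its naphthalene difference there was -0.47 ± 0.35, with a 95% interval of -1.18 to 0.24. The test of the naphthalene difference at day 7 less that at day 2 gave 1.87 ± 0.46, with an interval of 0.94 to 2.80 and an edgeR adjusted p of 0.0346. The call was lost with a replicate block (edgeR adjusted p 0.0505), with only the compared groups fitted (edgeR adjusted p 0.0565) and without any of 14 of the 23 libraries. It was the collagen gene called in that comparison, in which 0.461% of all genes tested were called higher and 0.553% lower. The comparison takes in the untreated day 2 libraries, whose mean of Col24a1 was the highest of the 6 combinations of agent and day, and there day, agent and letter cannot be told apart.

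Untreated lungs were compared across day labels next. From day 2 to day 5 to day 7 the fibrillar total of untreated lungs had medians of 6551, 3960 and 6106 CPM, and its libraries carry the letters k and n, f and o, and p at these days. At day 5 against day 2, 28 of the 40 differences were below 0 with a median of -0.30, against 0.01 over all genes tested. Only Col24a1 was called, and it fell (0.379% of all genes tested fell and 0.0971% rose), with a difference of -1.15 ± 0.25 (edgeR adjusted p 0.0254), while 17 genes had an unadjusted p under 0.05. The call was lost with only the compared groups fitted (edgeR adjusted p 0.216, and 0 calls over all genes), and without any of 8 of the 12 libraries. Col24a1 and Col15a1 were lower in every day 5 library than in any day 2 library, as were 0.257% of all genes tested. Col15a1 had 22.2 to 28.6 CPM at day 5 and 30.9 to 62.1 CPM at day 2, but its difference of -0.85 ± 0.24 was not called (edgeR adjusted p 0.131).

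By letter, day 5 against day 2 gave different lists. For letter f against letter k 1 collagen gene was higher and 9 were lower (1.16% and 1.4% of all genes tested). Col1a1 differed by -0.88 (edgeR adjusted p 0.00873), Col3a1 by -0.88, Col14a1 by -0.98, Col15a1 by -1.06 and Col24a1 by -1.29 (edgeR adjusted p 0.00617), and Col8a1 was the higher one at 1.63. For letter o against letter n 0 were higher and 1 was lower (0.484% and 0.0646%), and this was Col4a3 at -1.21 ± 0.27 (edgeR adjusted p 0.0337). Col24a1 stood at -0.78 there and was not called (edgeR adjusted p 0.509).

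At day 7 against day 5, 5 collagen genes rose and 3 fell, where 10.2% of all genes tested rose and 11.4% fell (21.6% in either direction). The split was 6 and 2 with RLE factors, 8 and 2 with DESeq2 and 3 and 4 with library totals alone. That last scaling moved the median of all genes to -0.15. Over all genes these settings gave 4498, 4884 and 5126 calls, against 4460 in the main fit. The share of collagen genes called lay near that of all genes. The fibrillar class had a median of 0.47 with 3 genes higher and 1 lower, FACIT genes a median of 0.45 with 1 higher and 1 lower, and microfibrillar genes a median of -0.51 with 1 lower, against 0.01 over all genes tested. The microfibrillar genes went both ways: the abundant Col6a1 and Col6a2 had differences of 0.35 ± 0.14 and 0.50 ± 0.19, which were not called, Col6a3 one of 0.03, and the 4 below 0 were the low-level chains Col6a4, Col6a5, Col6a6 and Col28a1. The summed level of the whole microfibrillar class had a median of 1891 CPM at day 7 and 1515 CPM at day 5. By genotype the class median was -0.09 in KO lungs and -0.92 in C lungs, a difference that was not tested. Col1a1 had 1528, 1763 and 2264 CPM as lowest, median and highest at day 7 and 865, 1067 and 1255 CPM at day 5, without overlap, and a difference of 0.78 ± 0.22 (edgeR adjusted p 0.0115). Col15a1, a collagen of vessel basement membranes, had 30.9, 49.1 and 63.3 CPM at day 7 and 22.2, 25.4 and 28.6 CPM at day 5, also without overlap, and a difference of 0.88 ± 0.24 (edgeR adjusted p 0.0102). Together with Col12a1, which was not called at 0.58 ± 0.23, these were the collagen genes whose day 7 libraries all lay above the day 5 libraries, as did 1.91% of all genes tested.

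Col14a1 had 32.96, 53.9 and 71.6 CPM at day 7 and 21.01, 30.6 and 33.9 CPM at day 5, with overlap at 1 library, and a difference of 0.88 ± 0.21 (edgeR adjusted p 0.00357). Col2a1 at 1.05 ± 0.35 and Col5a3 at 0.51 ± 0.19 also rose, with edgeR adjusted p-values of 0.03 and 0.0448. Col24a1 fell further, to 0.414, 0.749 and 1.15 CPM at day 7 against 1.14, 1.66 and 2.15 CPM at day 5, a difference of -1.10 ± 0.28 (edgeR adjusted p 0.0065). Col20a1, a FACIT chain, had a difference of -0.69 ± 0.21 and Col6a5, a type VI chain, of -0.67 ± 0.25, with edgeR adjusted p-values of 0.0171 and 0.049. Against letters f and o taken alone, Col1a1 rose by 0.69 and 1.00, Col14a1 by 0.85 and 0.95 and Col15a1 by 0.86 and 0.91, all called. Col24a1 differed by -1.21 against f (edgeR adjusted p 0.00294) and by -0.80 against o (edgeR adjusted p 0.107). Against f 3 collagen genes rose and 2 fell (9.13% and 10.4% of all genes tested), and against o 14 rose and 1 fell (8.57% and 9.71%), with Col4a2 at 1.24 and Col4a3 at 1.08 among those higher against o.

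Cell type markers were read for these days too, and they did not all go the same way. Of the alveolar type 1 markers 4 of 6 rose and 0 fell, of dividing cell markers 3 of 6 rose and 0 fell, and of alveolar type 2 and mesothelial markers 1 of 4 each rose. Of all genes tested 10.2% rose and 11.4% fell. The summed alveolar type 1 level had a median of 5803 CPM at day 7 and 3891 CPM at day 5, and the alveolar type 2 level 18037 and 11713 CPM. At day 5 the alveolar type 1 medians were 4086 CPM in letter f and 3559 CPM in letter o. Those of alveolar type 2 markers were 13892 and 9624 CPM, and those of dividing cell markers 37.8 and 50.8 CPM. Mesothelial markers had medians of 103.03 CPM at day 7 and 66.98 CPM at day 5, dividing cell markers 65.5 and 43.2 CPM, and Ptprc 69.8 and 108.3 CPM. Fibroblast markers had medians of 2762 CPM at day 7 and 3009 CPM at day 5. Myofibroblast and smooth muscle markers had medians of 637 and 519 CPM, and both sums overlapped between the days. Haemoglobin genes held a median of 1.895% of counts at day 7 and 0.617% at day 5. Their part in the collagen differences was not tested.

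At day 7 against day 2, 1 collagen gene rose and 2 fell, where 6.06% of all genes tested rose and 7.7% fell. With library totals alone 0 rose and 6 fell, and that scaling moved the median of all genes to -0.15. It gave 3831 calls over all genes, against 2835 in the main fit. Col24a1 had a difference of -2.25 ± 0.27 (edgeR adjusted p 7.3e-06), with every day 7 library below every day 2 library, as for 2.42% of all genes tested. Against letters k and n its differences were -2.51 (edgeR adjusted p 3.19e-07) and -1.58 (edgeR adjusted p 0.0018). Over the untreated days its median was 3.68, 1.66 and 0.749 CPM at days 2, 5 and 7. Col25a1, a transmembrane collagen of neurons, had a difference of -0.76 ± 0.25 (edgeR adjusted p 0.0412). Col8a1 had a difference of 0.88 ± 0.29 (edgeR adjusted p 0.0429), which was 1.53 against k and 0.08 against n. Col1a1 differed by -0.19 against k and by 1.00 against n (edgeR adjusted p 0.00359).

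**Figure D5:**
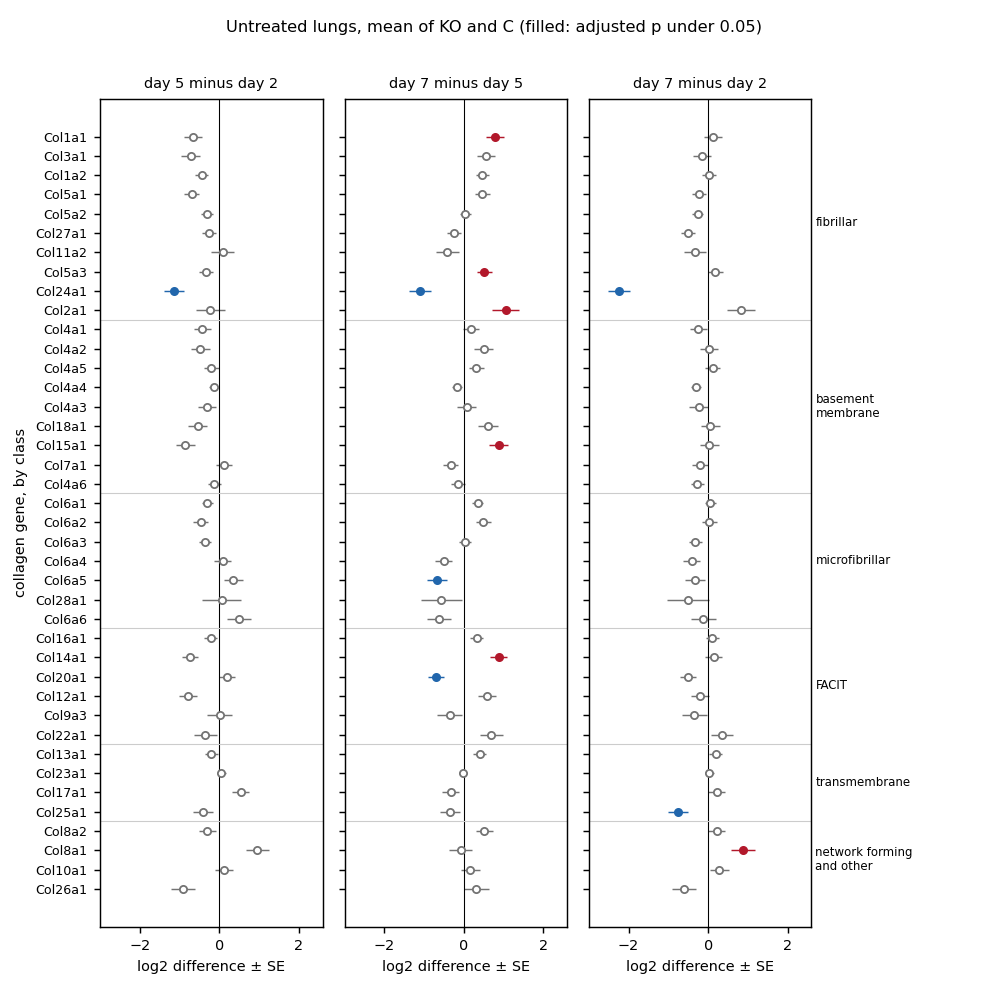
Log2 difference ± SE (horizontal axes) between day labels of untreated lungs for the 40 collagen genes, ordered by class down the page; filled points have an edgeR adjusted p under 0.05. Col24a1 is filled and left of 0 in all 3 panels, and Col1a1, Col14a1 and Col15a1 are filled and right of 0 for day 7 minus day 5.

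Genotype was compared over the 6 combinations of agent and day. Of the 40 collagen genes 0 were called in KO against C lungs by edgeR, as were 0 of all 20606 genes tested (0%). DESeq2 called 0 collagen genes, and 1 collagen gene had an unadjusted edgeR p under 0.05. The 0 over all genes depended on the setting. It was 503 with no filter on low counts, with 0 collagen genes, and 77 without letters k and f, with 1 collagen gene. The median log2 difference was -0.06, against 0.01 over all genes tested. Closest was Col2a1 at -0.58 ± 0.23 (edgeR adjusted p 0.299). The difference between genotypes in the naphthalene effect also gave 0 calls (0% of all genes tested) by edgeR and by DESeq2. It had 2 unadjusted edgeR p-values under 0.05, and its largest value was -0.93 ± 0.34 for Col24a1. Over all genes it gave 21 calls with no filter and 2 without letters k and f, with 0 collagen genes in both. Rora itself differed by 0.14 ± 0.09 between KO and C lungs (edgeR adjusted p 0.398), so the deletion was not detectable in whole-lung RNA.

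The enzymes and partners of collagen were taken from lists drawn up for this work. At day 2 after naphthalene, where 5.6% of all genes tested rose and 4.3% fell, 2 of 27 synthesis and processing genes rose and 0 fell, and they were P4ha2, a subunit of prolyl 4-hydroxylase, at 0.41 ± 0.12 and Tmem38b, an endoplasmic reticulum channel, at 0.44 ± 0.13. Of 5 crosslinking genes 1 rose, the lysyl oxidase Lox at 1.07 ± 0.24 (edgeR adjusted p 0.0036). Of 13 fibril-associated genes 2 rose and 3 fell. The proteoglycan Dcn, which coats collagen fibrils, rose by 0.69 and Prelp by 0.69, while Tnc fell by 1.42, Dpt by 0.66 and Thbs2 by 0.73. Of 7 degradation genes the neutrophil collagenase Mmp8 rose by 2.08 and the membrane metalloproteinase Mmp14 fell by 0.67. Of 15 basement membrane partners 1 rose, the laminin chain Lama1 at 1.73, and of 9 collagen receptors 0 were called, with 2 unadjusted p-values under 0.05. Lox, Mmp8 and Lama1 rose against both letters, at 1.14 and 0.96, 2.209 and 2.208, and 1.56 and 2.25 against k and n. Tnc, Dpt, Thbs2 and Mmp14 fell against k alone, with values against n of -0.60, -0.16, 0.19 and 0.11. The synthesis and processing list had 1 gene higher and 5 lower against k (6.96% and 5.88% of all genes tested), and 3 higher and 1 lower against n (5.05% and 3.87%).

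At day 5 after naphthalene, 7 of 27 synthesis and processing genes rose and 0 fell, where 4.34% of all genes tested rose and 2.82% fell. They were P4ha2 (0.41), P4ha3 (0.96), Fkbp14 (0.52), Colgalt1 (0.47), Tmem38b (0.47), the procollagen C-proteinase enhancer Pcolce (0.78) and the procollagen N-proteinase Adamts2 (0.66). Their list had a median of 0.27, against -0.02 over all genes tested, with 22 of 27 above 0. The crosslinking gene Loxl4 rose by 1.18, and the fibril-associated proteoglycans Dcn, Lum and Prelp rose by 0.64, 0.99 and 0.68. The collagenase Mmp13 fell by 1.06 and cathepsin K (Ctsk) rose by 0.90. Against letter f 0 of the 27 synthesis and processing genes were called (1.73% of all genes tested in either direction), with a median of 0.12, and against letter o 10 rose and 0 fell (6.92% and 4.8%), with a median of 0.45. Dcn, Lum and Ctsk rose against both letters. At day 7 after naphthalene 0 genes of these lists were called by edgeR.

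In untreated lungs at day 7 against day 5, 6 of 27 synthesis and processing genes rose and 2 fell, where 10.2% of all genes tested rose and 11.4% fell. The collagen chaperone Serpinh1 rose by 0.76, Pcolce by 0.75 and Tmem38b by 0.59, and Crtap, Fkbp10 and Fkbp14 by 0.51 to 0.54. P4ha1 fell by 0.44 and Colgalt2 by 0.69. Of 13 fibril-associated genes 4 rose and 0 fell, Lum by 1.07, Bgn by 0.66, Sparc by 0.62 and Dcn by 0.59. Against letter f 6 of the 27 rose and 2 fell (9.13% and 10.4% of all genes tested), and against letter o 9 rose and 1 fell (8.57% and 9.71%). At day 5 against day 2 the calls in these lists were P4ha1 higher at 0.55 and P4ha3, Thbs2 and Mmp14 lower at -1.62, -1.49 and -0.93 (0.0971% of all genes tested rose and 0.379% fell). These 4 were called for letter f against k and none of them for o against n.

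Cell type markers were read beside these results. At day 2 after naphthalene 2 of 8 fibroblast markers rose, Pi16 at 0.98 and Inmt at 0.88, and Dpt fell by 0.66, where 5.6% of all genes tested rose and 4.3% fell. Pi16 rose against both letters, and Inmt was called against k alone. The summed fibroblast level was 2407 to 3746 CPM after naphthalene and 2215 to 2741 CPM in untreated lungs, with overlap. Of 6 myofibroblast and smooth muscle markers 0 were called by edgeR, with 1 unadjusted p under 0.05. Of 12 chondrocyte markers 5 were abundant enough to test. Among these Chad fell by 2.44 (edgeR adjusted p 9.73e-08), Sox9 by 0.78 and Matn4 by 0.62, and the summed level was 66.8 to 113 CPM after naphthalene and 102.9 to 153.1 CPM in untreated lungs. Chad fell against both letters, with differences of -2.60 against k and -2.002 against n, and Sox9 and Matn4 fell against k alone. The defining cartilage markers Acan, Matn1, Comp and Snorc were too low to test. Of 4 mesothelial markers 1 rose, Msln at 1.89 (edgeR adjusted p 8.43e-07), and the summed level was 157 to 264 CPM after naphthalene and 49.8 to 136 CPM in untreated lungs. Of 4 basal epithelial markers 3 rose, Krt5, Krt14 and Krt15, with sums of 3.17 to 8.29 CPM after naphthalene and 1.15 to 2.48 CPM in untreated lungs. Mitochondrial genes held 1.63% to 2.57% of counts after naphthalene and 0.752% to 1.53% in untreated lungs. These 3 measures did not overlap between the groups. The part of any of these cells in the collagen values was not tested.

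Single libraries set many of the extremes. The untreated C library of day 5 with replicate number 1, of letter o, was the lowest of all 35 for 14 collagen genes. The untreated C library of day 2 with replicate number 2, of letter k, was the highest for 7, and the naphthalene KO library of day 5 with replicate number 2, the only one of letter i, for 6. Among the naphthalene libraries of day 2, the KO library with replicate number 2 had the highest fibrillar total, 5848 CPM in a range from 2996 CPM. It also had the highest Col1a1 and Col3a1 of that set, 1646 and 2104 CPM. Untreated day 5 had the lowest mean of the 6 combinations of agent and day for 15 of the 40 genes. The highest combination exceeded the lowest by 1.24-fold for Col4a5, the steadiest gene, and by 5.75-fold for Col24a1, with Col2a1 at 3.33-fold, Col8a1 at 2.84-fold and Col14a1 at 2.12-fold between them.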

How the data were processed

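The deposited table holds whole-number counts per gene for 35 libraries, which the authors left unnormalised as far as the values show. Genome build GRCm39 and DESeq2 are named without a role, per the submitters' processing notes. The sources used here do not name an aligner, a counting program, an annotation release or a strand setting. Without a known strand setting, reads in the short stretch shared by the Col4a1 and Col4a2 starts cannot be assigned to either gene.

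The tests used edgeR 4.0.16 and limma 3.58.1 under R 4.3.3, and DESeq2 1.42.0 as an alternative. Genes were kept by filterByExpr on the 12 groups (20606 genes, all 40 collagen genes among them), libraries were scaled by TMM, and CPM in the text are TMM-scaled, except the means of the selection rule. One robust quasi-likelihood fit of 12 group means (23 residual degrees of freedom, common biological coefficient of variation 0.222) gave log2 differences averaged over genotypes, with their standard errors, and p-values adjusted by Benjamini-Hochberg over all genes tested. A second fit with a mean for each group and letter (21681 genes, 18 residual degrees of freedom) gave the values by letter. Intervals are 95% and use the same residual spread. The scripts were tested on simulated data with known changes.

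The collagen genes, their classes and the other lists were chosen with earlier results of these data known. Library values and tests are given for the main chains of each class and for up to 5 called genes in each direction, and any collagen gene may be named. Replicate numbers did not pair the libraries: same-numbered libraries had mean correlations of their deviations between -0.107 and 0.252. Alternatives were other scalings, no filter, DESeq2, only the compared groups, a replicate block, each library left out, and the libraries of some letters left out, the last chosen after seeing the data. Precision is set by 2 or 3 libraries per group and by 10696690 to 21062713 counts per library.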

Additional observations from a re-analysis of the deposited data

Results flagged for a closer look

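Col24a1 had a naphthalene effect that differed between days. Its log2 difference of naphthalene over untreated lungs was -0.47 at day 7 and -2.34 at day 2, and the edgeR quasi-likelihood test of the change between these days gave 1.87 (adjusted p 0.0346). The call was lost in 17 of 31 alternatives, among them 14 of the 23 in which 1 library was left out, while the difference stayed between 1.21 and 2.10 and the adjusted p reached 0.265. At day 2 the naphthalene and untreated libraries carry different letters and at day 7 they share a letter. The part of the letter in the change was not tested.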

How the results depend on the processing

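Counts of collagen genes called, with the main value beside each, moved with the libraries left out by letter, and so did calls over all genes. In the main fit the calls over all genes were 2040 at day 2 and 1476 at day 5 after naphthalene. They were 209 for the change of the naphthalene effect between days 7 and 2, and 0 for genotype. For untreated day 5 over 2, 7 over 5 and 7 over 2 they were 98, 4460 and 2835. Without the letter n, o and i libraries the count was 13 at day 2 after naphthalene (main 8) and 0 at day 5 (main 2). It was 5 for the change of the naphthalene effect between days 7 and 2 (main 1). Over all genes these 3 comparisons gave 2796, 372 and 469 calls. For untreated day 5 over 2, 7 over 5 and 7 over 2 the count was 11 (main 1), 5 (main 8) and 6 (main 3). Over all genes these gave 610, 4275 and 2417 calls. Without the letter k and f libraries the count was 3 at day 2 and 15 at day 5 (1694 and 3663 over all genes). It was 0 for the change between days and 6 for untreated day 7 over 2 (159 and 4195 over all genes). For genotype it was 1 (main 0), the type IV chain Col4a3 at 0.50 (edgeR adjusted p 0.0283), where 77 of all genes were called. With only the compared groups fitted, the count was 5 at day 2 and 1 at day 5 (1813 and 605 over all genes). For the change between days it was 0 (224 over all genes). For untreated day 5 over 2 and untreated day 7 over 2 it was 0 and 1 (0 and 1430 over all genes). With no filter it was 11 at day 5 and 4 for the change between days (2696 and 603 over all genes). For untreated day 5 over 2 and untreated day 7 over 5 it was 9 and 14 (516 and 4464 over all genes). DESeq2 gave 4 at day 5 and 2 for untreated day 5 over 2 (2181 and 180 over all genes). Library totals gave 6 for untreated day 7 over 2 (3831 over all genes). Letter i is 1 naphthalene library of day 5, and leaving it out alone also gave 0 there. The cause of these moves was not tested.

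With a replicate block the counts were 8, 3 and 0 at days 2, 5 and 7 after naphthalene, 1, 8 and 3 for untreated day 5 over 2, 7 over 5 and 7 over 2, 0 for both genotype comparisons, and 0 for the change between days, where Col24a1 lost its call. The block moved no other count of collagen genes by over 1.5 times. Over all genes it gave 2006, 1403 and 77 calls at days 2, 5 and 7 after naphthalene. It gave 86, 4379 and 2737 calls for the untreated days and 170 for the change between days.

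With 1 library left out at a time the counts ran from 5 to 11 at day 2, 0 to 11 at day 5 and 0 to 1 at day 7 after naphthalene. Calls over all genes were as far apart as 1296 and 2577, 556 and 4073, and 33 and 72 at these days. The counts ran from 0 to 3 for the change between days (107 and 334 over all genes). For untreated day 5 over 2 they ran from 0 to 8 (21 and 441 over all genes). They ran from 4 to 18 for day 7 over 5 (2600 and 5657 over all genes) and from 1 to 3 for day 7 over 2 (1720 and 3309). For both genotype comparisons the counts stayed at 0. The count of 5 at day 2 came without naphthalene C replicate 2, naphthalene KO replicate 3, untreated C replicate 2 or untreated KO replicate 2. At day 5 it was 1 without naphthalene C replicate 1 or 2 or untreated C replicate 2, and 10 without naphthalene KO replicate 1. At day 7 the 1 call came without naphthalene C replicate 1 and was Col2a1 at -1.74 (adjusted p 0.0431). For untreated day 5 over 2 the count was 8 without day 2 C replicate 3 and 3 without day 2 KO replicate 1, both of letter n, and 0 without any of 8 others. For untreated day 7 over 5 it was 18 without day 5 C replicate 3, 5 without day 5 C replicate 1 or 2 or day 5 KO replicate 2, and 4 without day 7 KO replicate 3. For untreated day 7 over 2 it was 1 without day 2 C replicate 1, day 7 C replicate 1 or day 2 KO replicate 2 or 3. For the change between days it was 3 without naphthalene KO day 2 replicate 2, 2 without untreated KO day 2 replicate 1 and 0 without any of 14 others.

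Single genes differed in how firmly they held. Col24a1 kept its call in 20 of 20 alternatives at day 2 after naphthalene (-2.57 to -1.67) and for untreated day 7 over 2, as did Col1a1 and Col14a1 for untreated day 7 over 5. Col23a1, Col6a4, Col6a3 and Col8a1 kept theirs in 19 of 20 at day 2. Col3a1, Col22a1 and Col5a3 lost theirs in 10, 10 and 8 of 20. At day 5 Col14a1 lost its call in 7 alternatives and Col8a2 in 5. Signs turned for Col1a1 and Col1a2 at day 2 after naphthalene without letters k and f (0.43 and 0.15), for Col4a1 at day 2 without letters n, o and i (-0.023) and for Col4a1 in untreated day 7 over 5 without them (-0.064). Col1a1 in untreated day 7 over 2 (main 0.12) turned to -0.014 with library totals, -0.19 without letters n, o and i, and -0.023 and -0.025 without untreated day 2 C replicate 3 or KO replicate 1, in a range of -0.025 to 0.27 with 1 library left out. Depth limits the sparse genes, Col24a1, Col22a1, Col2a1, Col28a1 and Col6a6, and letter cannot be told apart from agent or day outside day 7.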
